A study of Mus musculus with 4 samples.

Results

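The genes described here are 8 neurotrophic ligands and receptors, Ntf3, Nrtn, Gfra2, Gfra3, Ret, Ntrk2, Ntrk3 and Nrg1, taken by name from the 30406 genes that the feature lists of all 4 libraries share. Their unique molecular identifiers (UMIs, tags that count captured transcripts once each) were followed by cell class and library in single-cell RNA sequencing of female C57BL6/J mice, from the submandibular salivary gland. Suspensions were depleted with magnetic beads of dead cells and of cells carrying EpCAM, found on epithelium, or Ter119, found on red blood cells. The ligated group had a metal clip on the main ducts for 14 days and holds 1 library. The other, mock, had its ducts located but not clipped, was also taken at 14 days and holds 3 libraries, called mock 1, 2 and 3. The question was which stromal class carries each ligand or receptor, and whether its level differed in the ligated library. Over all barcodes Ntf3 had 10327 UMIs, Ntrk2 3337, Ret 1512, Gfra3 1311, Ntrk3 1210, Gfra2 823, Nrtn 367 and Nrg1 136.

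Neurotrophic factors are secreted proteins that support the survival and wiring of neurons, and the parasympathetic neurons that drive saliva secretion lie in ganglia close to the gland. Neurotrophin-3, made from Ntf3, binds the receptor tyrosine kinase TrkC, encoded by Ntrk3, and more weakly TrkB, encoded by Ntrk2. Neurturin, made from Nrtn, is a ligand of the GDNF family, which binds a GPI-anchored co-receptor, chiefly that of Gfra2, and signals through the kinase Ret. Gfra3 encodes the co-receptor of another ligand of that family, artemin. Neuregulin-1, made from Nrg1, acts on ErbB receptors, and Erbb3 is its receptor on Schwann cells.

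In the annotation of the mm10 build, Ntf3 lies at chr6:126101412-126166910 on the minus strand, Nrtn at chr17:56751325-56757530 on the minus strand and Ntrk2 at chr13:58806569-59133970 on the plus strand. The 250 bases before a start of these 3 genes are shown because, of the 8 genes, these 3 matched a RefSeq entry, in GRCm38.p6. Capitals mark a GC box (GGGCGG) or an E-box (CACGTG), both searched on both strands, and the windows lie at chr6:126166745-126166994, chr17:56757549-56757798 and chr13:58806319-58806568.
Ntf3: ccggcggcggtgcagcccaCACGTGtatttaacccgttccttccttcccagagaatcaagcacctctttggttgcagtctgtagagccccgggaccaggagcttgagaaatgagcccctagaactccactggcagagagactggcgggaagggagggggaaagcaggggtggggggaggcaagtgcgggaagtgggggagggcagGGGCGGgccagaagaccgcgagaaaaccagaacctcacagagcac
Nrtn: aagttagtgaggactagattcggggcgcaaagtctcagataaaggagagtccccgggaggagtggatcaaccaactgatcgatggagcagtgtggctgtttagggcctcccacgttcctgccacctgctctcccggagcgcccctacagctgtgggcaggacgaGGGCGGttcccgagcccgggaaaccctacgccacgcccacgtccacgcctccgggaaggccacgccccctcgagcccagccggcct
Ntrk2: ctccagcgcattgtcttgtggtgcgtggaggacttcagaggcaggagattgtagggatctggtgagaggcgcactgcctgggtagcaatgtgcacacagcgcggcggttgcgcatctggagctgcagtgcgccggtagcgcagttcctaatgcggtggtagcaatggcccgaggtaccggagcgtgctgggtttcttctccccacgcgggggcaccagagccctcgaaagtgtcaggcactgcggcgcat
Of 32851 promoter windows of the same length, 32.74% held GGGCGG and 6.02% held CACGTG. Neither TATAAA (12.37% of windows) nor CCAAT (33.85%) matched in the windows shown, and the Ntrk2 window matched none of the 4 motifs. Ntf3 has another start, whose window at chr6:126164961-126165210 matched CCAAT and no E-box.

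The libraries held 13790 (ligated), 4798, 9627 and 13194 (mock 1, 2 and 3) barcodes with 80187555, 29897488, 47182114 and 56932041 UMIs, of which 11836, 4413, 8539 and 11359 cells were used. Any pair of libraries shared 11 to 61 barcodes, at most 0.634% of the smaller library. By their headers the ligated and mock 1 files were made with Cell Ranger 6.0.1 and those of mock 2 and 3 with 7.0.0, and summed counts of mock 2 and 3 were close (chi-square per degree of freedom 1.53 in fibroblast-like cells, against 18.91 to 74.33 for the other pairs). In fibroblast-like cells the log2 ratio of mock 2 and 3 to mock 1 had a median of 0.84 for genes whose introns exceed 100 kb and of -0.08 for genes with up to 1 kb. Intron length is 1059.13 kb for Nrg1, 531.88 kb for Ntrk3, 308.11 kb for Ntrk2, 86.18 kb for Gfra2, 63.78 kb for Ntf3 and under 40 kb for Ret, Gfra3 and Nrtn, so the values of the first 3 in mock 2 and 3 stand beside a difference between file versions whose part was not tested. The intron length of Ntf3 falls in neither of the 2 groups compared. In fibroblast-like cells the log2 ratios of mock 2 and 3 to mock 1 were 0.68 and 0.97 for Ntf3, and -0.89 and -0.99 for Ntrk2. The part of the file version in the Ntf3 values was not tested either. The labels do not tie the libraries to animals, so p-values measure the spread between these libraries, which may be technical. Levels below are counts of a gene per 1000000 UMIs of its class within 1 library (CPM), and they are compared between libraries and classes, not between genes.

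Clustering without the 8 genes and 33 related genes gave 35 clusters, 33 of which took a class from marker genes, and 10 classes reached 15 cells in each of the 4 libraries. There were 1253 ligated fibroblast-like cells, against 194, 358 and 499 of mock 1, 2 and 3. Mural-like cells (pericytes and smooth muscle) came to 539 ligated and 258, 290 and 370 mock cells, and endothelial-like cells to 4160 ligated and 2662, 5461 and 7137 mock cells. Glia-like cells, carrying Schwann cell genes such as Sox10, came to 292 ligated and 22, 35 and 39 mock cells, which is 2.47% of ligated cells and 0.343 to 0.499% of mock cells. All 8 glia markers had UMIs in the ligated library, mock 1 and mock 3, and 7 of 8 in mock 2, where Prx was at 0. Which class carried each gene is a description and was not tested.

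**Figure D1:**
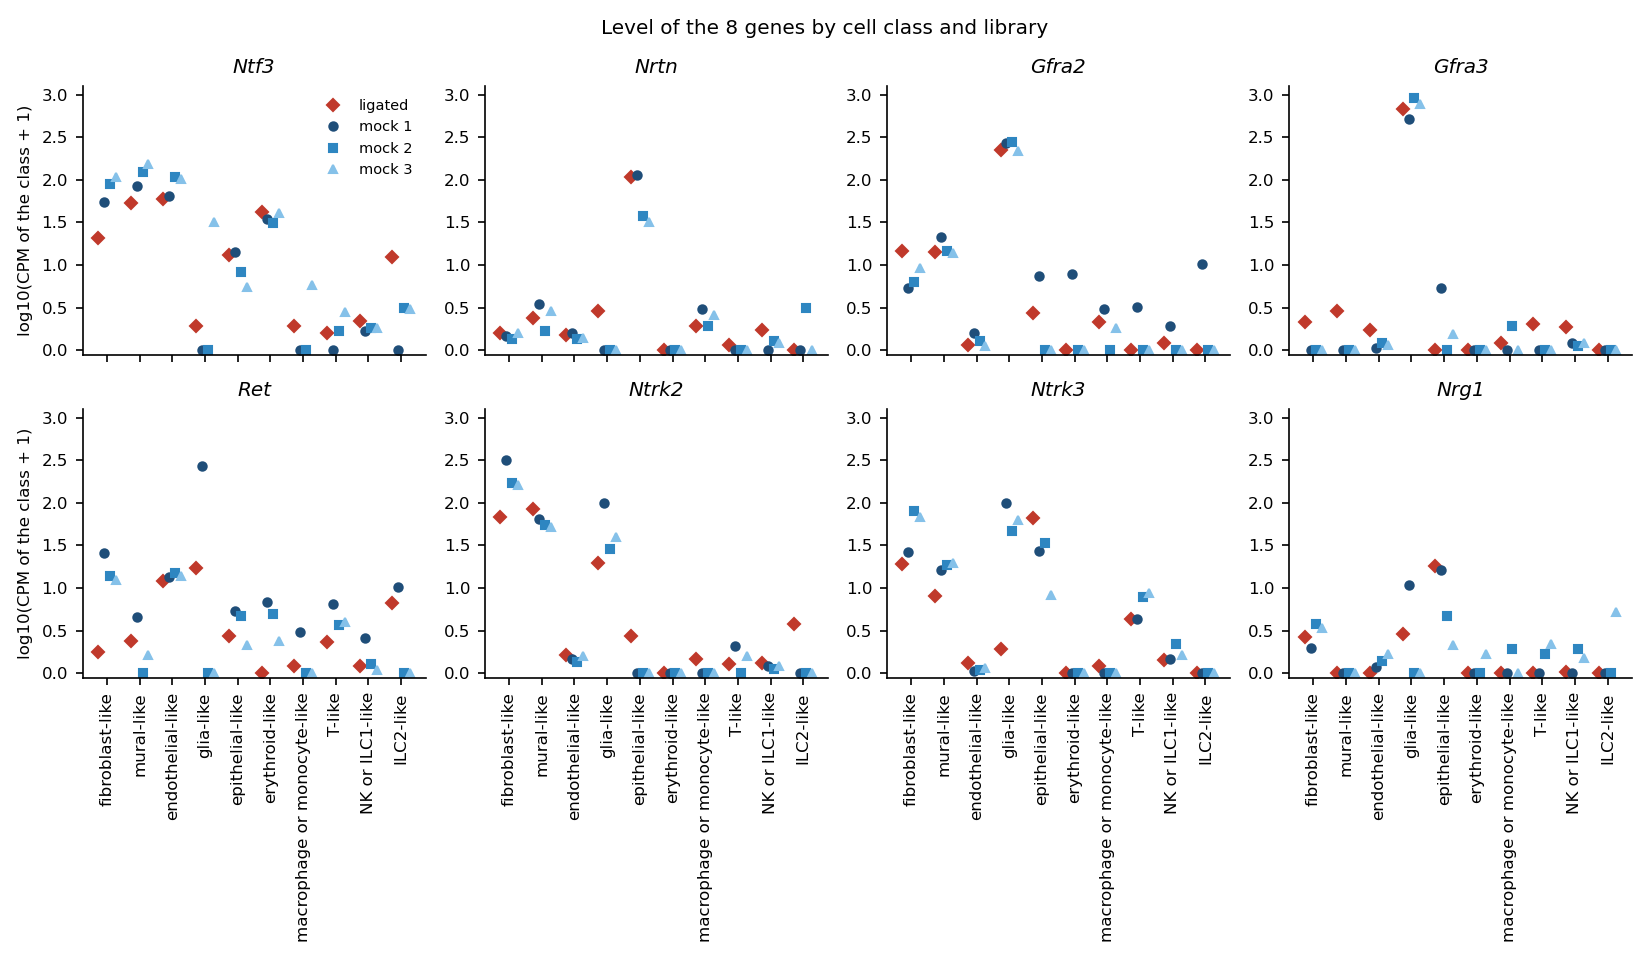
Level of each of the 8 genes in 10 cell classes, as log10 of CPM of the class plus 1, with 1 symbol per library (ligated, mock 1, mock 2, mock 3). Gfra3 is high in glia-like cells alone among these classes, with 677 CPM in the ligated library and 509 to 904 CPM in the mock libraries, while Ntf3 is high in mural-, endothelial- and fibroblast-like cells.

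Ntf3, the ligand for TrkC, was carried by 3 stromal classes and close to absent from immune cells. Its mean over the 4 libraries was 103 CPM in mural-like cells, 82.8 CPM in endothelial-like cells and 67.2 CPM in fibroblast-like cells, and the ranges over libraries of these neighbours overlapped, so their order is not set. The next class, erythroid-like cells, had a mean of 36.3 CPM, and there the 8 endothelial markers summed to 5963 CPM in the ligated library and 4973 to 7445 CPM in the mock libraries. NK or ILC1-like cells had 1.20 CPM in the ligated library and 0.691, 0.818 and 0.852 CPM in mock 1, 2 and 3. Because endothelial-like cells were many, they held 75.6% of the Ntf3 UMIs of the ligated library and 75.4, 83.8 and 79.1% of those of mock 1, 2 and 3. A Ntf3 UMI was found in 20.1% of endothelial-like cells of the ligated library and in 26.4, 31.3 and 27.0% of those of mock 1, 2 and 3, against 0.716% of NK or ILC1-like cells in the ligated library and 0.342 to 0.615% in the mock libraries. Median depths of the 2 classes were 3685 and 5067 UMIs in the ligated library, and in the mock libraries 3040 to 5158 UMIs for endothelial-like and 5963 to 7004 UMIs for NK or ILC1-like cells. With each cell thinned to 1000 UMIs the endothelial shares were 5.69% for ligated cells and 5.70, 9.94 and 10.2% for mock 1, 2 and 3.

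In the ligated library Ntf3 lay below all 3 mock libraries in each of the 3 classes taken whole, but not in the endothelial cluster that held most ligated cells. Fibroblast-like cells had 19.5 CPM of Ntf3 in the ligated library and 54.6, 87.6 and 107 CPM in mock 1, 2 and 3, so the groups did not overlap. The log2 fold change was -1.98 ± 0.44 (SE), with an unadjusted p of 0.007 and an adjusted p of 0.203 by edgeR's quasi-likelihood test with Benjamini-Hochberg adjustment over 12120 genes. Mural-like cells had 53.1 CPM in the ligated library and 84.4, 122 and 151 CPM in the mock libraries, a log2 fold change of -1.12 ± 0.36 with an edgeR adjusted p of 0.671. Endothelial-like cells had 58.7 CPM in the ligated library and 63.7, 106 and 102 CPM in the mock libraries, a log2 fold change of -0.67 ± 0.34 with an edgeR adjusted p of 0.601. Against mock 1 alone, whose file has the same version, the endothelial log2 ratio was -0.12, with a counting interval of -0.24 to 0.01 that includes 0. The same ratio was -1.48 in fibroblast-like cells, with an interval of -1.83 to -1.14. In a fit of both classes with a term for each library, the ligated difference of Ntf3 was lower in fibroblast-like than in endothelial-like cells by a log2 difference of -1.25 (edgeR adjusted p = 0.0063). Of 15001 genes tested for that difference 5.43% passed.

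Within fibroblasts, most ligated cells fell in cluster 10, led by Mgp, Cxcl14, Spp1 and Cilp (1028 ligated cells and 61, 20 and 33 cells of mock 1, 2 and 3), and most mock cells in cluster 13, led by Dcn, Gsn, Lama2 and Lsamp (22 ligated cells and 132, 338 and 466 mock cells). In cluster 10, Ntf3 had 19.4 CPM in the ligated library and 35.7, 88.9 and 79.3 CPM in mock 1, 2 and 3. In cluster 13 it had 35.9 CPM in the ligated library, from 7 UMIs, and 60.6, 87.6 and 108 CPM in the mock libraries. The ligated value was thus the lowest in either cluster, but its 95% Poisson interval overlapped that of mock 1 in cluster 10 (16.7 to 22.3 CPM ligated, 21.5 to 55.8 CPM mock 1) and in cluster 13 (14.4 to 74.0 CPM ligated, 48.8 to 74.4 CPM mock 1). Such intervals cover counting error only. Mural-like cells were also split by cluster, since cluster 14 held all 539 ligated and 257 mock 1 cells but 36 and 46 cells of mock 2 and 3. The pericyte-type cluster 25, led by genes such as Rgs5, Kcnj8 and Abcc9, had no ligated cell and 1 mock 1 cell. There Ntf3 had 119 CPM in mock 2 and 212 CPM in mock 3. The muscle-type cluster 23, led by genes such as Tagln, Acta2 and Myh11, had cells of mock 2 and 3 alone (127 and 171), with Ntf3 at 126 and 136 CPM. In cluster 14, Ntf3 had 53.1 CPM in the ligated library and 84.6, 88.7 and 64.2 CPM in mock 1, 2 and 3. The values of mock 2 and 3 there rest on 7 and 8 UMIs, and their intervals (35.7 to 183 and 27.7 to 126 CPM) cover the ligated value. The part of cluster membership in the mural difference was not tested.

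Endothelial-like cells were split in the same way. Cluster 2, led by genes such as Igfbp3, Flt1 and Gpihbp1, held 2660 of 4160 ligated cells and 296, 34 and 39 cells of mock 1, 2 and 3. Cluster 3, led by genes such as Adgrl4, Sox18 and Flt1, held 9 ligated cells and 32, 1168 and 1275 mock cells, and cluster 0, led by Car4, Rbp7 and Sox18, held 58 ligated cells and 270, 1485 and 2210 mock cells. In cluster 2, with 890 of the 1132 endothelial Ntf3 UMIs of the ligated library, Ntf3 had 70.4 CPM in the ligated library and 55.5, 53.1 and 105 CPM in mock 1, 2 and 3, from 77, 6 and 9 UMIs. The ligated value there lay inside the mock range, above mock 1 and 2. In cluster 0 it had 74.7 CPM in the ligated library, from 12 UMIs, and 60.0, 138 and 136 CPM in the mock libraries. The part of cluster membership in the endothelial difference was not tested.

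**Figure D2:**
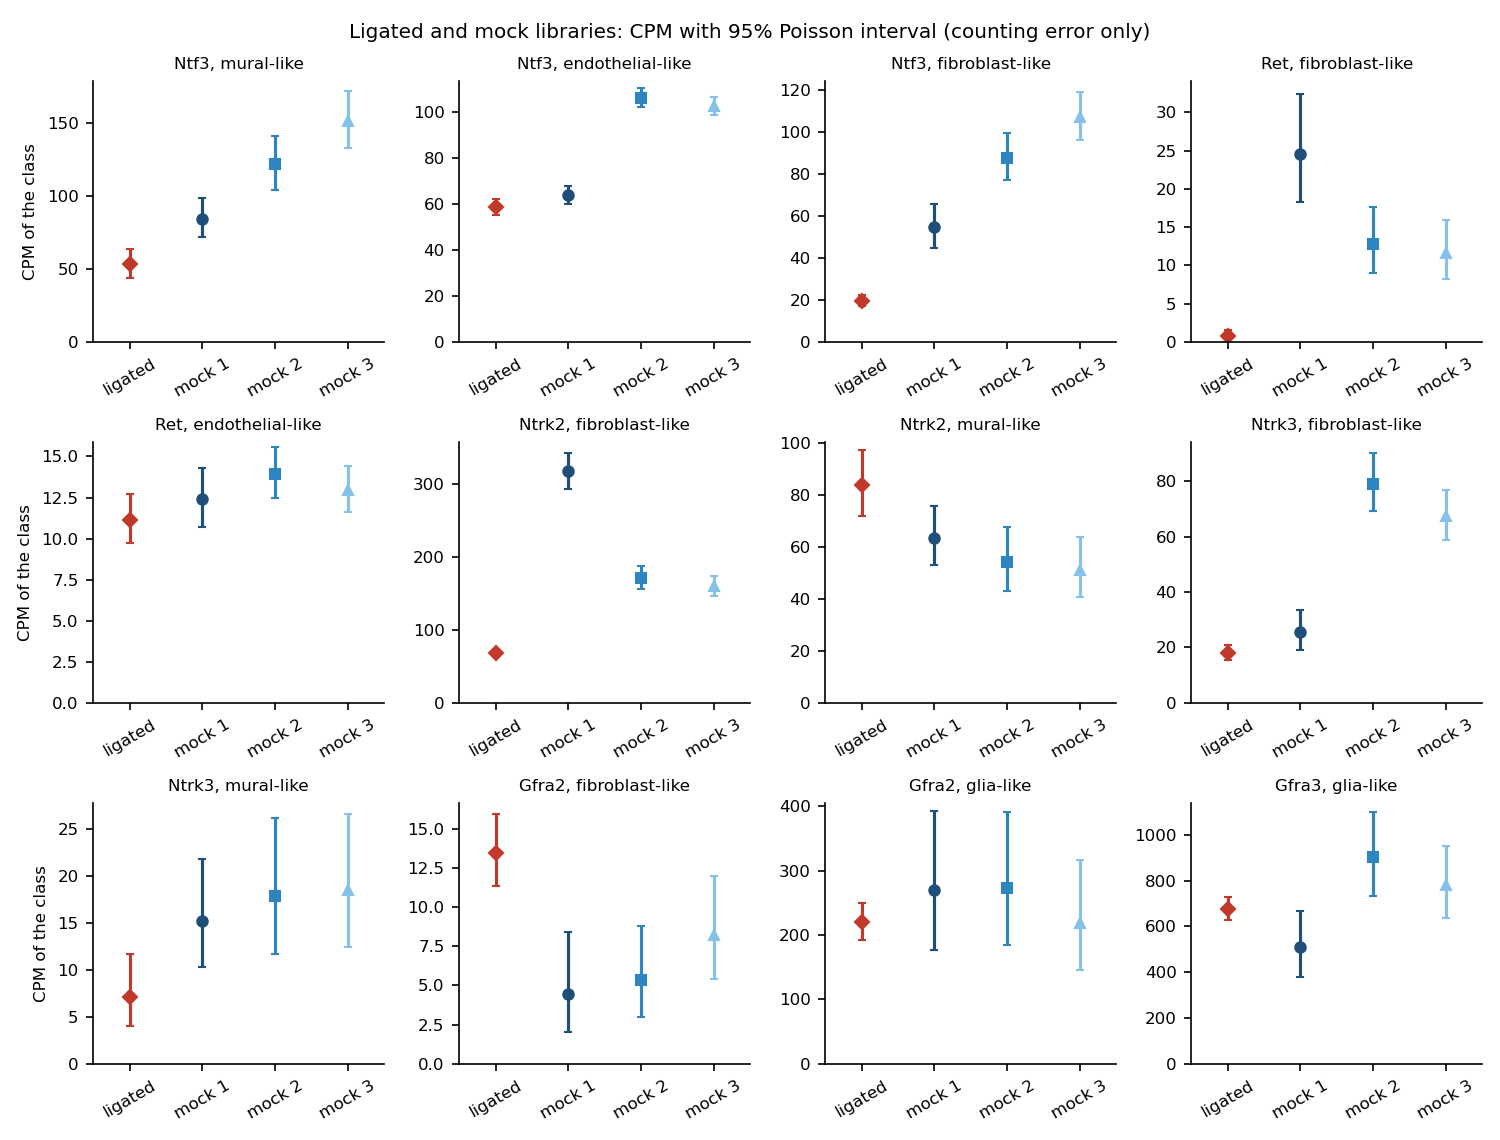
CPM of Ntf3, Ret, Ntrk2, Ntrk3, Gfra2 and Gfra3 in named classes for the ligated library and mock 1, 2 and 3, with the 95% Poisson interval of each library's count as bars. In fibroblast-like cells Ntf3, Ret and Ntrk2 of the ligated library (19.5, 0.781 and 67.6 CPM) lie below all 3 mock libraries, while Gfra2 and Gfra3 in glia-like cells lie within the mock range.

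Ntrk2, the gene of TrkB, was a gene of fibroblast- and mural-like cells. Over the 4 libraries it averaged 179 CPM in fibroblast-like cells and 63.2 CPM in mural-like cells, ranges that overlap, and then 46.3 CPM in glia-like cells on 38 UMIs. Endothelial-like cells had at most 0.622 CPM in any library. Fibroblast-like cells held 75.7% of the Ntrk2 UMIs of the ligated library and 81.7, 84.1 and 83.5% of those of mock 1, 2 and 3. A Ntrk2 UMI was present in 28.7% of fibroblast-like cells of the ligated library and in 77.3, 55.9 and 52.5% of those of mock 1, 2 and 3, at median depths of 8376 UMIs and 10766.5, 7838.5 and 6551 UMIs. With each cell thinned to 1000 UMIs the shares were 5.39% in the ligated library and 20.5, 13.8 and 14.4% in the mock libraries. The share in NK or ILC1-like cells was 0.187% in the ligated library and at most 0.153% in a mock library.

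Ntrk2 of the ligated library lay on opposite sides of the mock range in these 2 classes. Fibroblast-like cells had 67.6 CPM in the ligated library and 317, 171 and 160 CPM in mock 1, 2 and 3, a log2 fold change of -1.57 ± 0.54 (edgeR adjusted p = 0.354). Mural-like cells had 84.0 CPM in the ligated library and 63.6, 54.3 and 51.1 CPM in the mock libraries, a log2 fold change of 0.60 ± 0.26 (edgeR adjusted p = 0.679). Neither difference passed on its own, but the difference between them did. In a fit of both classes with a term for each library it was -2.10 on the log2 scale, fibroblast-like minus mural-like, with an edgeR adjusted p of 9.7e-06, and 4.29% of 12295 genes passed that test. In cluster 10 Ntrk2 had 67.0 CPM in the ligated library and 265, 477 and 180 CPM in mock 1, 2 and 3, and no mock interval reached the ligated one (62.0 to 72.3 CPM). In cluster 13 the 22 ligated cells had 159 CPM and the mock libraries 336, 157 and 159 CPM, so there the ligated value lay inside the mock range. The mural value also stands beside a split by cluster. In cluster 14 Ntrk2 had 84.0 CPM in the ligated library and 63.7 CPM in mock 1, with intervals that overlap (72.1 to 97.3 CPM ligated, 53.0 to 75.9 CPM mock 1), and mock 2 and 3 had 1 and 3 UMIs there. The muscle-type cluster 23, with no ligated or mock 1 cell, had 79.8 and 69.6 CPM in mock 2 and 3. The pericyte-type cluster 25, with no ligated cell and 1 mock 1 cell, had 10.8 and 16.1 CPM in mock 2 and 3. The part of these clusters in the mural value and in the class difference of -2.10 was not tested. Ntrk2 overlaps the counted antisense genes Gm47423 and 4930415C11Rik and, on its own strand, C630044B11Rik, which is not among the shared genes. The part of these overlaps in its counts was not tested.

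**Figure D3:**
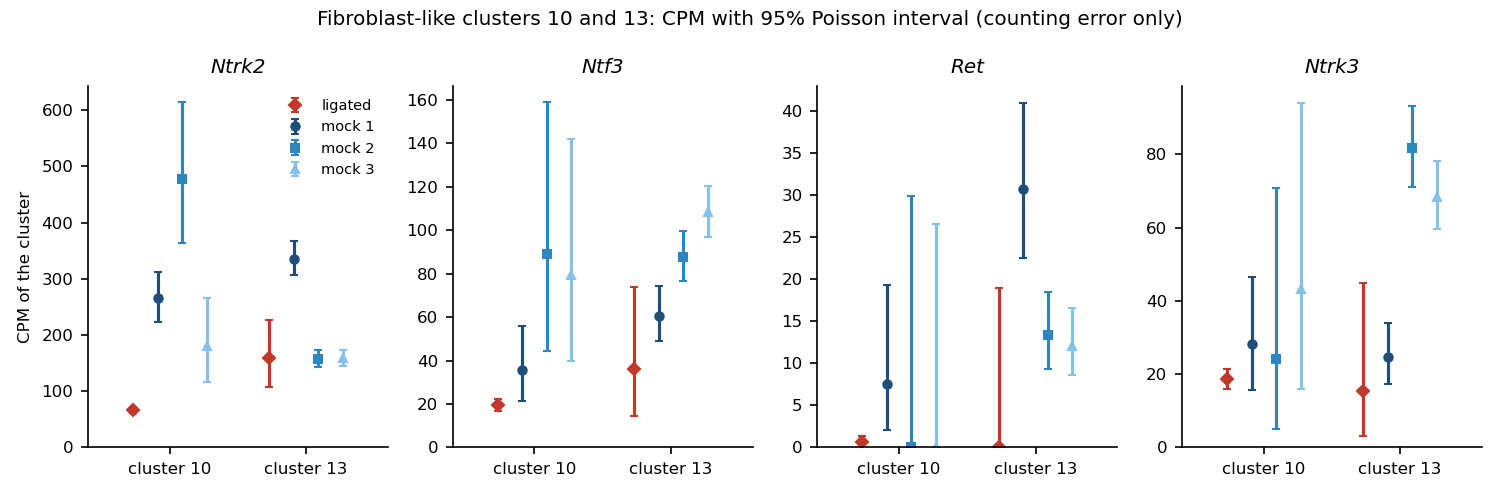
CPM of Ntrk2, Ntf3, Ret and Ntrk3 in fibroblast-like clusters 10 and 13 for the ligated library and mock 1, 2 and 3, with 95% Poisson intervals as bars. Ntrk2 of the ligated library (67.0 CPM) is below every mock library in cluster 10, while in cluster 13 it is at 159 CPM, within the mock range.

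Ntrk3 (chr7:78175959-78738012), the gene of TrkC, was spread over fibroblast-, glia- and epithelial-like cells. Fibroblast-like cells had 18.2 CPM in the ligated library and 25.6, 79.1 and 67.4 CPM in mock 1, 2 and 3, a log2 fold change of -1.54 ± 0.65 (edgeR adjusted p = 0.400). Against mock 1 alone the log2 ratio was -0.49, with a counting interval of -0.94 to -0.02, and with a term for the Cell Ranger version the fitted change was -0.43 (edgeR adjusted p = 0.235). In cluster 13 Ntrk3 had 15.4 CPM in the ligated library, 24.7 CPM in mock 1 and 81.6 and 68.5 CPM in mock 2 and 3. The part of intron length and file version in this gap between mock libraries was not tested. Mural-like cells had 7.12 CPM in the ligated library and 15.3, 17.9 and 18.5 CPM in the mock libraries, a log2 fold change of -1.23 ± 0.40 (edgeR adjusted p = 0.671). Glia-like cells had 1 Ntrk3 UMI in 292 ligated cells (0.945 CPM, 95% Poisson interval 0.024 to 5.27) and 10, 5 and 8 UMIs in the 22, 35 and 39 cells of mock 1, 2 and 3 (99.8, 45.7 and 62.6 CPM). The groups did not overlap, and the log2 fold change was -5.82 ± 2.26 (edgeR adjusted p = 0.810). Tested between classes, the ligated difference of Ntrk3 was higher in fibroblast-like than in glia-like cells by 4.57 on the log2 scale (edgeR adjusted p = 0.0072), and 1.28% of 12692 genes passed that test. It rests on 24 glial UMIs in all. Ntrk3 overlaps the counted antisense genes 4921513I08Rik and Gm9885 and, on its own strand, Gm44607 and Gm39038, which are not among the shared genes.

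Some fibroblast-like cells held UMIs of both Ntf3 and a receptor. Of the 360 ligated fibroblast-like cells with a Ntrk2 UMI, 60 also had a Ntf3 UMI, against 55 of 150 in mock 1, 95 of 200 in mock 2 and 114 of 262 in mock 3. For Ntf3 and Ntrk3 together the counts were 18 cells of 1253 in the ligated library and 12 of 194, 38 of 358 and 54 of 499 in the mock libraries. The product of the 2 genes' shares gives 43.7 ligated and 54.1, 83.2 and 106.6 mock cells for Ntf3 with Ntrk2, and 16.4 ligated and 10.5, 45.8 and 54.1 mock cells for Ntf3 with Ntrk3. The counts with Ntrk2 lay above the product in all 4 libraries and those with Ntrk3 on either side of it. No test was made, and cells of greater depth have more UMIs of either gene.

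Gfra3 (chr18:34689898-34720387), the artemin co-receptor, was a gene of glia-like cells. They held 716 of 772 Gfra3 UMIs in the ligated library and 51 of 55, 99 of 106 and 100 of 107 in mock 1, 2 and 3. A Gfra3 UMI was present in 220 of 292 glia-like cells (75.3%) of the ligated library and in 15 of 22, 29 of 35 and 31 of 39 (68.2, 82.9 and 79.5%) of those of mock 1, 2 and 3. In NK or ILC1-like cells the share was 0.529% in the ligated library and 0.102 to 0.153% in the mock libraries, at higher median depth (5067 UMIs, against 2906.5 UMIs in ligated glia-like cells). The level in glia-like cells was 677 CPM in the ligated library and 509, 904 and 783 CPM in the mock libraries, which overlaps, with a log2 fold change of -0.19 ± 0.45 (edgeR adjusted p = 0.985). Over all cells of a library Gfra3 had 11.9 CPM in the ligated library and 2.03, 2.59 and 2.27 CPM in the mock libraries, beside a glial share of cells of 2.47% and 0.499, 0.410 and 0.343%. Fibroblast-like cells had 12 Gfra3 UMIs in the ligated library (1.17 CPM) and 0 in the mock libraries, too few for a test in that class. Cluster 10 held 6 of them (0.612 CPM), and the other 6 (24.4 CPM) lay in cluster 26, which had 203 ligated cells and 1 mock 1 cell at a median of 728.5 UMIs. Ligated NK or ILC1-like cells, a class that should lack the gene, had 0.890 CPM.

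Gfra2 (chr14:70890120-70979838), the neurturin co-receptor, was also led by glia-like cells. Its level there was 220 CPM in the ligated library and 270, 274 and 219 CPM in mock 1, 2 and 3, a log2 fold change of -0.28 ± 0.39 (edgeR adjusted p = 0.985), with the ligated library inside the mock range. Of glia-like cells with a Gfra2 UMI, 122 of 146 in the ligated library and 9 of 10, 16 of 18 and 15 of 16 in the mock libraries also had a Gfra3 UMI. Mural-like cells had 13.3 CPM of Gfra2 in the ligated library and 20.3, 13.7 and 12.8 CPM in the mock libraries. Fibroblast-like cells had 13.5 CPM in the ligated library and 4.43, 5.32 and 8.23 CPM in the mock libraries, above the mock range, a log2 fold change of 1.25 ± 0.43 (edgeR adjusted p = 0.354). This moved with the clusters, since Gfra2 had 13.8 CPM in ligated cells of cluster 10 and 15.0, 0 and 36.0 CPM in mock 1, 2 and 3 there (8, 0 and 5 UMIs). In cluster 13 its 22 ligated cells had 0 UMIs, which allows up to 15.4 CPM at 3 counts, and mock 1, 2 and 3 had 0.666, 5.57 and 7.01 CPM. The part of cluster membership in the fibroblast Gfra2 difference was not tested.

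Ret (chr6:118151745-118197718), the signalling receptor that both co-receptors need, was almost absent from glia-like cells outside 2 barcodes. These cells had the highest level of both co-receptors. Fibroblast-like cells, by contrast, had 189 Gfra2 and 132 Ret UMIs over the 4 libraries. Glia-like cells had 17, 27, 0 and 0 Ret UMIs in the ligated library and mock 1, 2 and 3, and all but 1 of these came from 2 barcodes. 1 barcode was in the ligated library and 1 in mock 1, and each had UMIs for 6 of 7 neuron markers, among them Tubb3, Elavl4 and Chat, with Th at 0, while no other of 41409 barcodes had more than 3. The ligated barcode, with 121812 UMIs, had 17 Ret, 10 Gfra2, 7 Ntrk2, 2 Nrg1 and 0 Gfra3 UMIs, beside 773 UMIs of Tubb3, 79 of Slc18a3 and 3462 of Vip. The mock 1 barcode, with 19798 UMIs, had 26 Ret, 9 Gfra2, 1 Ntrk2, 1 Nrg1 and 0 Gfra3 UMIs, beside 12 of Slc18a3, the vesicular acetylcholine transporter, and 10 of Vip, a parasympathetic neuropeptide. They were 11.5% of the glial UMIs of the ligated library and 19.8% of those of mock 1. Without them Ret had 0, 1, 0 and 0 UMIs in the glia-like cells of the ligated library and mock 1, 2 and 3, Gfra2 had 238 CPM in the ligated library and 224, 274 and 219 CPM in the mock libraries, and Gfra3 had 765 CPM in the ligated library and 634, 904 and 783 CPM in the mock libraries. The 0 of 291 remaining ligated glia-like cells limits cells with a UMI at this depth and does not show that Ret is absent.

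**Figure D4:**
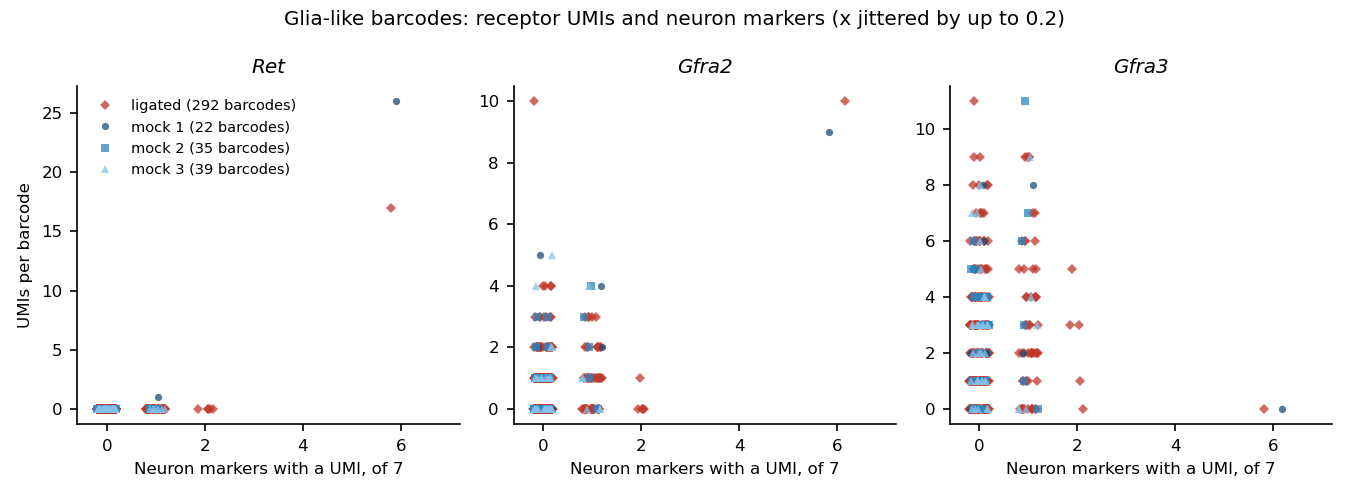
UMIs of Ret, Gfra2 and Gfra3 in each glia-like barcode against the number of 7 neuron markers with a UMI, for the ligated library and mock 1, 2 and 3. The 2 barcodes with 6 neuron markers, 1 ligated and 1 mock 1, hold 17 and 26 Ret UMIs and 0 Gfra3 UMIs.

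Endothelial-like cells, which were many, held 82.7% of the ligated Ret UMIs and 63.6, 85.9 and 86.8% of those of mock 1, 2 and 3. The mean level over the mock libraries was 13.1 CPM in endothelial-like and 16.3 CPM in fibroblast-like cells, with ranges that overlap. By library the endothelial level was 11.2 CPM in the ligated library and 12.4, 14.0 and 12.96 CPM in the mock libraries, a log2 fold change of -0.28 ± 0.19 (edgeR adjusted p = 0.628). These near-equal class levels hold clusters that differ. In cluster 2, which held most ligated cells, Ret had 9.81 CPM in the ligated library and 34.6, 26.5 and 35.0 CPM in mock 1, 2 and 3, from 124 ligated and 48, 3 and 3 mock UMIs. The ligated interval there (8.16 to 11.7 CPM) lay below that of mock 1 (25.5 to 45.9 CPM). Cluster 3 held 333 of the 1057 endothelial Ret UMIs, of which 2 were ligated, with 25.4 and 27.1 CPM in mock 2 and 3. The level was highest in cluster 16, with 265 UMIs, led by genes such as Vwf, Selp and Lrg1, which venous endothelium is known to carry. In cluster 16 Ret had 42.0 CPM in 243 ligated cells and 81.2, 94.0 and 73.6 CPM in 74, 159 and 239 cells of mock 1, 2 and 3. The ligated interval (30.8 to 55.8 CPM) touched that of mock 1 (55.5 to 115 CPM) and lay below those of mock 2 and 3. In fibroblast-like cells Ret had 8 UMIs in 1253 ligated cells (0.781 CPM) and 50 UMIs in 194 mock 1 cells (24.6 CPM), with 12.8 and 11.6 CPM in mock 2 and 3. No mock library overlapped the ligated one, and the log2 fold change was -4.22 ± 0.76 (edgeR adjusted p = 0.142). Tested between classes, the ligated difference of Ret was lower in fibroblast-like than in endothelial-like cells by -3.85 on the log2 scale (edgeR adjusted p = 0.0072). Fibroblast-like cells were split by cluster here too, and the part of that split in the Ret difference was not tested. In cluster 13 the 22 ligated cells had 0 Ret UMIs, which allows up to 15.4 CPM at 3 counts, and mock 1, 2 and 3 had 30.7, 13.4 and 12.1 CPM. In cluster 10 Ret had 6 UMIs in the ligated library (0.612 CPM) and 4, 0 and 0 UMIs in mock 1, 2 and 3. The mock 1 value there was 7.52 CPM, and its interval (2.05 to 19.2 CPM) lay above the ligated one (0.225 to 1.33 CPM). The 0 UMIs of mock 2 and 3 allow up to 24.3 and 21.6 CPM at 3 counts. The endothelial markers summed to 263 CPM in ligated and 149 to 422 CPM in mock fibroblast-like cells, against 12181 CPM in ligated and 12737 to 15096 CPM in mock endothelial-like cells.

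Nrtn was a ligand of epithelial-like cells. It was highest in a small group of them with both epithelial and muscle genes, where Nrg1 (chr8:31814551-32884029) also had its highest level. Epithelial-like cells, which the bead depletion is meant to remove, had 107 CPM of Nrtn in the ligated library and 113, 36.6 and 31.1 CPM in mock 1, 2 and 3. No other class averaged over 1.64 CPM. Within the class, cluster 22, led by genes such as Wfdc18, Acta2 and Krt14, had 231 CPM in the ligated library and 238, 77.6 and 114 CPM in the mock libraries. It held 52 of the 62 epithelial-like Nrtn UMIs of the ligated library and 43 of 52, 16 of 50 and 24 of 55 in mock 1, 2 and 3. Most of those of mock 2 and 3 thus lay in other epithelial-like clusters. At a resolution of 2.0 the 308 cells of cluster 22 parted into 204 that stayed epithelial-like, 103 that took the mural-like name and 1 that took the endothelial-like one. Those 103 cells held 125 of the cluster's 135 Nrtn UMIs and all of its Ntrk3 and Nrg1 UMIs. Krt14 was present in 78.6% of them, Acta2 in 67.0%, Cnn1 in 52.4%, Krt5 in 46.6% and Trp63 in 32.0%, genes that myoepithelial cells are known to carry together, and Rgs5 in 2.91%. Among the 204 cells Krt14 was present in 0.980% and Trp63 in 0%, at a median of 1110.5 UMIs against 1837 UMIs in the 103.

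In these 103 cells, 48 of them ligated and 12, 27 and 16 of mock 1, 2 and 3, Nrtn had 253 CPM in the ligated library and 319, 113 and 510 CPM in the mock libraries. Ntrk3 had 189 CPM in the ligated library and 89.1, 415 and 349 CPM in the mock libraries. Its mock 2 value comes from 5 cells, 1 of which holds 21 of the 44 UMIs, and that of mock 3 from 3 cells with 13 UMIs. Nrg1 had 44.7 CPM in the ligated library, from 9 UMIs, and 52.0, 47.2 and 53.7 CPM in the mock libraries, from 7, 5 and 2 UMIs. The ligated value of Nrtn and of Ntrk3 lay inside the mock range. For Nrg1 it lay below the 3 mock values but its 95% Poisson interval (20.4 to 84.8 CPM) covered them all. Of 54 cells of cluster 22 with a Nrtn UMI, 25 had a Ntrk3 UMI and 10 a Nrg1 UMI, at a median depth of 4230 UMIs, against 1084.5 UMIs for cells without Nrtn. Mock 1 had 12 of the 103 cells, under the minimum of 15, so no test was made. Outside mock 1, most Nrg1 UMIs of a library lay outside this group. Fibroblast-like cells held 17 of 30 in the ligated library and 2 of 13, 8 of 31 and 8 of 38 in mock 1, 2 and 3, and epithelial-like cells 10 in the ligated library and 7, 5 and 2 in the mock libraries. In endothelial-like cells Nrg1 had 0 UMIs in the ligated library, which allows up to 0.156 CPM at 3 counts, and 3, 9 and 17 UMIs in the mock libraries (0.197, 0.388 and 0.669 CPM). In fibroblast-like cells it had 1.66 CPM in the ligated library and 0.983, 2.84 and 2.44 CPM in the mock libraries.

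Over the 4 tested classes no member passed an adjusted p of 0.05 by edgeR's quasi-likelihood test. Among all genes 0 of 12120 passed in fibroblast-like cells (0%), 0 of 14178 in endothelial-like cells (0%), 1 of 10957 in mural-like cells (0.00913%) and 1 of 3188 in glia-like cells (0.0314%). At an unadjusted p under 0.05, 4 of 5 members tested in fibroblast-like cells passed, 1 upward and 3 downward, against 13% of all genes (1573). The counts were 1 of 7 in endothelial-like cells against 8.88% (1259 genes), 2 of 4 in mural-like cells against 7.13% (781 genes) and 1 of 5 in glia-like cells against 5.71% (182 genes). The member in endothelial-like cells was Nrg1, at 0 UMIs in the ligated library. Below the mock range lay 4 of the 5 members in fibroblast-like cells, where 28.8% of all genes did, and above it 1, where 30.5% did. The members' places here and below use CPM without TMM scaling between libraries. The shares of all genes use CPM with that scaling, so counts and shares are not on the same scale. Without mock 1, a fit whose spread rests on mock 2 against mock 3, 6540 of 12156 genes passed in fibroblast-like cells (53.8%), the 5 members tested there among them, a share of all genes so high that nothing is read from the members' count. In mural-like cells 1 of 4 members lay above the mock range, as did 28.3% of all genes, and 2 below it (26.5%). Of 7 members tested in endothelial-like cells 2 lay above it (28.7% of all genes) and 3 below it (27.3%). Of 5 in glia-like cells 0 lay above it (23.5% of all genes) and 2 below it (19.5%). In the tests between classes no member passed for endothelial-like minus mural-like cells (1.16% of all genes did), endothelial-like minus glia-like cells (0.766%) or mural-like minus glia-like cells (0.377%). In fibroblast-like cells the median log2 fold change of the 5 members was -1.57, beside -0.03 over all genes tested.

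**Figure D5:**
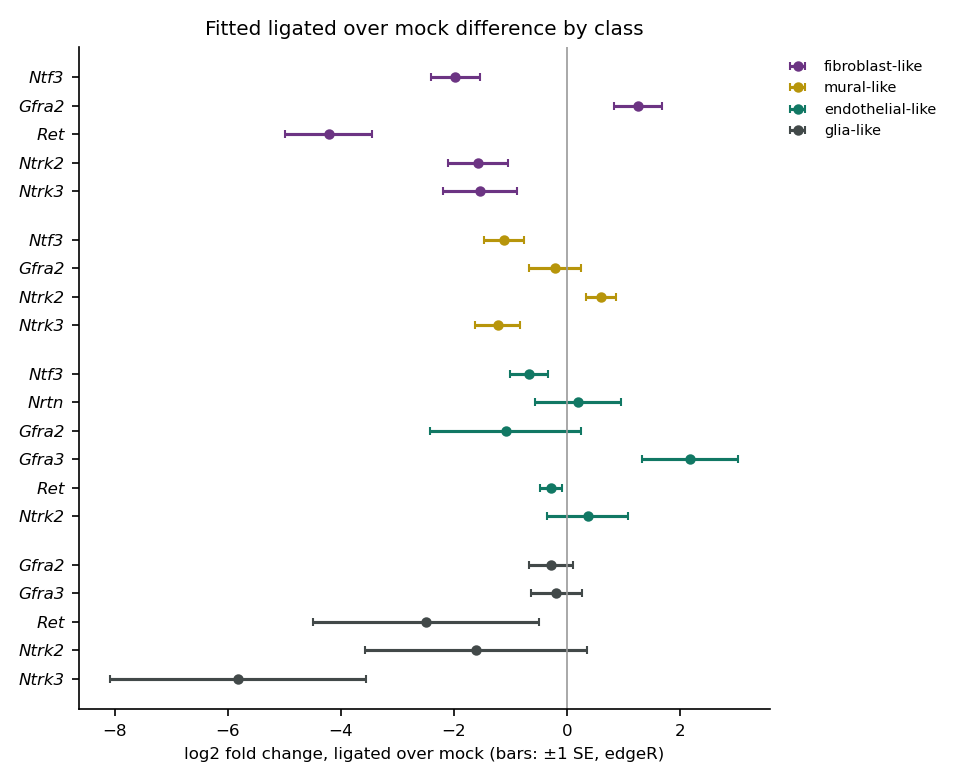
Fitted log2 fold change of ligated over mock with 1 SE on either side, for each member with at least 10 UMIs in a class and a UMI in the ligated library. Ret (-4.22), Ntf3 (-1.98), Ntrk2 (-1.57) and Ntrk3 (-1.54) lie below 0 and Gfra2 (1.25) above it in fibroblast-like cells, and none passed an adjusted p of 0.05.

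The rest of the pathway comprised 33 listed genes, of which 26 had at least 50 UMIs in the 10 classes. Glia-like cells had the highest mean of 9 of the 26, among them Erbb3, Ngfr, Ncam1, Ptn and Gfra1, fibroblast-like cells of 7, among them Egfr, Mdk and Nrg2, and mural-like cells of 4, among them Bdnf, Sort1 and Gdf15. Erbb3, the neuregulin receptor, averaged 331 CPM in glia-like cells and 6.12 CPM in the next class, and 139 of 220 ligated glia-like cells with Gfra3 also had an Erbb3 UMI, against 13 of 15, 23 of 29 and 22 of 31 in mock 1, 2 and 3. Gdnf and Artn, ligands of the same family as neurturin, had few UMIs, with at most 13 Gdnf and 25 Artn UMIs in any class. In the small glia-like class the ligated library had 11.3 CPM of Gdnf, from 12 UMIs, and 10.4 CPM of Artn, from 11 UMIs. The 22, 35 and 39 glia-like cells of mock 1, 2 and 3 had 1, 0 and 0 Gdnf UMIs and no Artn UMI. None of the list passed an adjusted p of 0.05 by edgeR in any class, of 18 tested in fibroblast-like, 15 in endothelial-like, 11 in mural-like and 10 in glia-like cells.

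Listed genes outside the mock range were named by their fitted change within each class. In fibroblast-like cells Nrg2, another neuregulin, had 5.08 CPM in the ligated library and 16.7, 39.7 and 41.5 CPM in mock 1, 2 and 3 (log2 fold change -2.57, edgeR adjusted p = 0.231). Gfra1, the GDNF co-receptor, had 5.08 CPM in the ligated library and 13.3, 24.5 and 15.9 CPM in the mock libraries, and Egfr, the EGF receptor, 87.0 CPM in the ligated library and 151, 348 and 353 CPM in the mock libraries. In glia-like cells Ngfr, the p75 neurotrophin receptor, had 175 CPM in the ligated library and 110, 54.8 and 54.8 CPM in the mock libraries (log2 fold change 1.19, edgeR adjusted p = 0.866). Ncam1, a cell adhesion protein that also binds GDNF, had 507 CPM in ligated glia-like cells and 1078, 1233 and 877 CPM in mock ones (log2 fold change -1.14, edgeR adjusted p = 0.810). Lifr, the receptor for leukaemia inhibitory factor, had 35.9 CPM in ligated glia-like cells and 59.9, 82.2 and 93.9 CPM in mock ones. In mural-like cells Ncam1 had 9.01 CPM in the ligated library and 26.5, 22.7 and 17.3 CPM in the mock libraries, and Egfr had 2.85 CPM in the ligated library and 4.58, 12.4 and 13.4 CPM in the mock libraries. In endothelial-like cells Lifr had 95.2 CPM in the ligated library and 174, 174 and 173 CPM in the mock libraries (log2 fold change -0.92 ± 0.16, edgeR adjusted p = 0.445). Differences were small for Il6st, the shared signalling chain of that receptor, with 209 CPM in ligated endothelial-like cells and 273, 265 and 261 CPM in mock ones (log2 fold change -0.40). For Sort1, a sorting receptor for neurotrophins, they were 21.7 CPM in ligated and 28.0, 25.7 and 21.9 CPM in mock ones (log2 fold change -0.27).

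By the Pearson r of log2(CPM + 1) over the 10 class means, a description over points that share their libraries, the gene most like Gfra3 was Kcna1 (0.9991), a potassium channel gene that was itself a glia marker, followed by Luzp2 and Sfrp5. Those most like Ntrk2 were Lrrtm3 (0.9957), Alx4 and Smarca1, and those most like Ntf3 were Fam13c (0.982), Ebf3 and Acy3. Irx1 (0.9891), Cox8b and Klk1b8 were most like Nrtn, Ndrg4 (0.9758), Csmd1 and Lrrc4c most like Gfra2, and Gm30025 (0.9365), Adamts2 and Ephb6 most like Ntrk3. For Ret (Per3, Macrod2 and Kansl2, r from 0.9521 to 0.9675) the likeness includes the glial value that the 2 neuron-marker barcodes carry. For Nrg1 the genes were Aldh1l1 (0.9521), Rab15 and Ecrg4, and its glial value also comes from those 2 barcodes.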

How the data were processed

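Single cells of 4 libraries were captured with 10x Genomics droplets. The deposited values are raw UMI counts per gene and barcode, 1 matrix per library, with no normalization by the authors. Cell Ranger 7.0.1 and the mm10 build are named per the submitters' processing notes, while the file headers name other versions, and no source here states whether intronic reads were counted. The members and gene lists were chosen with earlier results of these data known.

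Cells needed at least 500 UMIs and 300 genes and at most 15% mitochondrial UMIs. In each library the barcodes with the highest Scrublet scores, 0.8% per 1000 barcodes, were removed as doublets (1468 ligated barcodes and 176, 712 and 1340 of mock 1, 2 and 3), because Scrublet's automatic threshold called 0 in mock 2 and 3. Cells were clustered with scanpy 1.11.5 (2000 variable genes, 30 principal components, 15 neighbours) and the Leiden method at a resolution of 1.0, without the members and the related genes. Clusters were named from marker lists, by the mean log2 ratio of marker CPM to the median over clusters, and the scoring, including the limit for possible doublet clusters, was set after the clusters were seen.

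Counts were summed per class and library, in classes with at least 15 cells per library, and compared with edgeR 4.0.16 (quasi-likelihood F test, TMM, filterByExpr, Benjamini-Hochberg), fitted on all genes and tested on simulated data. Only the 3 mock libraries inform the spread (2 residual degrees of freedom), and a like spread is taken for the ligated one. For 1 ligated library against 3, an exact permutation test of a single value cannot go below p = 0.25. Differences between classes came from joint fits with library terms, for 6 pairs of classes, added after the data were seen, and are given only for genes that passed the filter in each class alone. CPM are per class without TMM scaling, except that the shares of all genes outside the mock range use TMM-scaled CPM. Named genes are the members with 10 or more UMIs in a class and, of the list, the 3 largest changes outside the mock range per class with at least 10 CPM in either group; 1 gene so named is not reported here. Alternatives were DESeq2 1.42.0, no filter, no TMM scaling, a Cell Ranger version term, other doublet, UMI and clustering settings, thinning, and each mock library left out. GENCODE M21 held 30329 of the 30406 gene IDs.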

Additional observations from a re-analysis of the deposited data

Results flagged for a closer look

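A result is listed here where the ligated difference of a member was tested between 2 classes and differed, over 6 pairs of classes. For Ret it was -3.85 on the log2 scale in fibroblast-like minus endothelial-like cells (edgeR adjusted p = 0.0072, on 132 and 1057 UMIs). For Ntf3 the difference between the same classes was -1.25 (adjusted p = 0.0063, on 909 and 7171 UMIs). Ntrk2 differed by -2.10 in fibroblast-like minus mural-like cells (adjusted p = 9.7e-06, on 2344 and 461 UMIs). Ntrk3 differed by 4.57 in fibroblast-like minus glia-like cells (adjusted p = 0.0072), with 24 UMIs in glia-like cells. Beside the first 3 stands the split of fibroblast-like cells, 1028 of 1253 ligated cells in cluster 10 and most mock cells in cluster 13. The other class of each was split as well. Cluster 2 held 2660 of 4160 ligated endothelial-like cells, against 296, 34 and 39 cells of mock 1, 2 and 3. Mural-like clusters 23 and 25 had no ligated cell. Mock 1 had 0 and 1 cells there, mock 2 had 127 and 127, and mock 3 had 171 and 153. The part of these splits in the 3 results was not tested.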

How the results depend on the processing

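Of 208 refitted fold changes of members, 178 kept direction and side of the threshold, 25 passed an adjusted p of 0.05 where the fit as reported did not, and 5 changed sign. The 5 were small differences: Nrtn in endothelial-like cells (-0.28) and Gfra3 in glia-like cells (0.32) with a term for the Cell Ranger version, Gfra2 (0.051) and Gfra3 (0.19) in glia-like cells with Scrublet's automatic threshold, and Gfra2 in mural-like cells, which ranged over -0.366 to 0.080 as each mock library was left out, the highest without mock 1. Most passes came without mock 1 (12) or with the version term (9), and both take their spread from mock 2 against mock 3 alone. DESeq2 passed Ntf3 (-1.97, adjusted p = 0.0059) and Ret (-4.27, adjusted p = 0.00024) in fibroblast-like cells. Without mock 1, fibroblast-like Ntf3 (-2.18), Ntrk2 (-1.14), Ntrk3 (-1.86), Ret (-3.78) and Gfra2 (1.11) passed.

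Counts of all genes passing were 378 (DESeq2), 173 (no filter) and 2325 (version term) in fibroblast-like cells, 217 (DESeq2) and 5108 (version term) in endothelial-like cells, 20 (DESeq2), 13 (no filter), 1468 (version term), 0 (Scrublet's automatic threshold) and 3 (at least 1000 UMIs) in mural-like cells, and 13 (DESeq2), 21 (no filter), 144 (version term) and 0 (without the neuron-marker barcodes) in glia-like cells. Leaving out 1 mock library gave 0 to 6540, 0 to 8848, 0 to 2738 and 1 to 89 in fibroblast-, endothelial-, mural- and glia-like cells, the highest each time without mock 1. The cause was not tested.

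The class with the highest mean changed for Ret (endothelial-like, 12.6 CPM without the neuron-marker barcodes and 12.7 CPM without mock 1), Ntrk3 (fibroblast-like, 54.9 CPM, without mock 1) and Nrg1 (glia-like, 2.97 CPM, at a resolution of 2.0, where the 103 cells take the mural-like name). In the classes as reported, all 3 glia-like Nrg1 UMIs came from the 2 neuron-marker barcodes. At a resolution of 2.0 the mean of Nrtn in epithelial-like cells was 27.0 CPM, against 72.1 CPM as reported. No paired analysis was possible because the labels pair no ligated library with a mock one. Zero counts limit Nrg1 in endothelial-like, Gfra3 in fibroblast-like and Ret in glia-like cells. The settings without TMM scaling and without the neuron-marker barcodes were chosen after seeing the data.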
